A study of Mus musculus with 4 samples.

Results

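The chemokine ligand genes are the genes of the secreted attractants that chemokine receptors read. They were taken here as the protein-coding genes on mouse build mm10 whose symbol begins with Ccl, Cxcl, Xcl or Cx3cl and goes on with a digit, and 37 of 21938 protein-coding genes met that rule. DNase-seq, which maps where the nuclease DNase I can cut chromatin, was performed on primary alpha-beta T cells labelled CD8-positive, naive and resting, that is, cells of the CD8 lineage that have not met antigen. All 4 libraries, biological replicates 1 to 4, came from virgin female mice of the hybrid strain B6CASTF1/J aged 2 months, with no treatment named, and no other group was used here. The labels give the same donor identifier to all 4 libraries with a different biosample for each, so the spread between them may be partly technical.

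Chemokines fall by textbook function into homeostatic ligands, made steadily by stroma and epithelium to place lymphocytes in tissues, and inflammatory ligands, switched on in many cells by infection or injury. CD8 T cells are known as a source of a few of them, chiefly Ccl3, Ccl4, Ccl5 and Xcl1, after stimulation or in memory cells. Most of the genes lie in tandem clusters that arose by duplication. In these data 4 of the 37 genes had an accessible promoter: Ccl25 and Ccl27a in all 4 libraries, and Ccl4 and Cxcl10 in replicates 1 to 3. No peak was found at the promoters of Ccl3, Ccl5 and Xcl1 in any library.

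The values describe accessibility, not expression. A peak's height is the deposited signal, which is scaled to the depth of its library. Relative height divides it by the library's median height at sites called in all 4 libraries, so that 1 is a typical shared site, and a promoter or site without a peak is set to 0. A site counts as accessible where at least 3 of 4 libraries have an overlapping peak. Promoters reach 1 kb to either side of every GENCODE start, and loci reach 25 kb beyond both ends of the gene.

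The libraries differed in their number of peaks and in their markers. Replicates 1 to 4 held 69413, 70552, 51121 and 20647 peaks in the longer of the peak lists of each library. Of 10 CD8 T cell marker promoters, 10, 10, 8 and 4 had a peak in replicates 1 to 4, and their summed relative height was 10.5, 10.3, 8.04 and 4.09. Cd8a, which encodes a coreceptor chain, had a promoter peak in replicates 1 and 2 and none in replicates 3 and 4. Of 10 B cell marker promoters, 8, 7, 9 and 7 had a peak, with a summed relative height of 3.27, 3.81, 5.47 and 5.84, the lower values in replicates 1 and 2. Of the 2 helper T cell genes, Cd4 had no promoter peak in any library, and Zbtb7b, which encodes a helper lineage factor, had relative heights of 0.251, 0.358, 0.746 and 1.12. Of 10 myeloid marker promoters, 5, 5, 5 and 1 had a peak (summed 1.40, 1.21, 1.41 and 0.614), and Csf1r, Adgre1, Mpo, Elane and S100a8 had none in any library. Of 8 dendritic marker promoters, 5, 5, 5 and 2 had a peak (summed 2.77, 2.61, 2.68 and 1.79). Most of that sum came from Ccr7 (2.03, 1.81, 1.46 and 1.46), which is taken up again below among the receptors. Of 7 stromal and endothelial marker promoters, 4, 3, 5 and 2 had a peak (summed 2.19, 2.07, 2.43 and 0.912). Of 5 natural killer marker promoters, 1, 1, 1 and 0 had a peak, each time that of Eomes (0.513, 0.326, 0.409 and 0). The part of other cell types in the results below was not tested, and a lower share of accessible cells cannot be told apart from less cutting per cell. Counts of promoters and sites are therefore also given for replicates 1 and 2 alone. Counts of receptors and of loci with a site are not.

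Some of the accessible sites that carry these results are shown first, as the reference genome has them (RefSeq, GRCm38.p6, the build named mm10 in the labels). They run 5′ to 3′ on the strand of the nearest chemokine ligand gene. Capitals mark bases inside a deposited footprint in at least 2 libraries, where a footprint is a short stretch spared from cutting within accessible chromatin. The mice carry CAST alleles as well, which these letters do not show. The site at the Ccl4 start is not shown, because start sites were printed only for genes matched in the RefSeq promoter sequences described below. The first set is the other sites at chemokine ligand starts: at Ccl25 (chr8:4325041-4325260, plus strand), the higher and lower of the sites at Ccl27a (chr4:41774101-41774300 and chr4:41773601-41773880, minus strand), and Cxcl10 (chr5:92348821-92349080, minus strand).
Ccl25 start: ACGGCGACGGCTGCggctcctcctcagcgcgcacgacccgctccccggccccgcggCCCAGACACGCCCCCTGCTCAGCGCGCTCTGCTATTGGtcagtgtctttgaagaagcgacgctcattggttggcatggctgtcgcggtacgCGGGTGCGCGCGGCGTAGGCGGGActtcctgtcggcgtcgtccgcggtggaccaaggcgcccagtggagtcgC
Ccl27a start, higher site: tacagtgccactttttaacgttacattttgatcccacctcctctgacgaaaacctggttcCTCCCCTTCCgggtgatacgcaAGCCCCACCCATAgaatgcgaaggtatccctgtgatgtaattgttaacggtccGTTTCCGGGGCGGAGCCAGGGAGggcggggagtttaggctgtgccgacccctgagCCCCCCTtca
Ccl27a start, lower site: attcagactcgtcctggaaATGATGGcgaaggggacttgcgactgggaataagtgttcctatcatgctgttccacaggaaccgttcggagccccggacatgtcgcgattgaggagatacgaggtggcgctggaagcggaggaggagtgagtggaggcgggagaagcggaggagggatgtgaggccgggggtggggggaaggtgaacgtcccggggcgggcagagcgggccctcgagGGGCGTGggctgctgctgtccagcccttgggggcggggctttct
Cxcl10 start: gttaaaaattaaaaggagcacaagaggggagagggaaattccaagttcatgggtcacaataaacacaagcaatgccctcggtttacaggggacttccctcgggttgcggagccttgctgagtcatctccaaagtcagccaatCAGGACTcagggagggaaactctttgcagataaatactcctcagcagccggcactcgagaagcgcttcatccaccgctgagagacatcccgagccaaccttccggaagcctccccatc

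The Ccl25 site was the most footprinted of these, with 77 of 220 bases in capitals (35.0%) and 32 CpG. The higher Ccl27a site had 53 of 200 bases in capitals (26.5%) and 11 CpG, and the lower one 14 of 280 (5%). At Cxcl10 7 of 260 bases were in capitals (2.69%), with 9 CpG.

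The second set is the 4 highest sites of the chemokine ligand loci that lie away from every protein-coding start. They are near Cxcl9 (chr5:92312421-92312620, shown on the minus strand), Ccl25 (chr8:4322581-4322780, in an intron of Elavl1), Ccl17 (chr8:94812881-94813080) and inside an intron of Ccl28 (chr13:119631841-119632040).
Site near Cxcl9: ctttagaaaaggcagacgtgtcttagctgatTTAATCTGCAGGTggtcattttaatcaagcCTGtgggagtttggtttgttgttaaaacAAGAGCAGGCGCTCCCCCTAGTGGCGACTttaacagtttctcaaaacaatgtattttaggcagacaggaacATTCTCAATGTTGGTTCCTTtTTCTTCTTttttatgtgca
Site near Ccl25: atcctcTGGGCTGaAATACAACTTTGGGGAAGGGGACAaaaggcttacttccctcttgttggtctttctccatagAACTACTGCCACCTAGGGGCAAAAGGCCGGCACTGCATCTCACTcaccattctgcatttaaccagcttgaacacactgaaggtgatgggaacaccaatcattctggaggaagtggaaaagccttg
Site near Ccl17: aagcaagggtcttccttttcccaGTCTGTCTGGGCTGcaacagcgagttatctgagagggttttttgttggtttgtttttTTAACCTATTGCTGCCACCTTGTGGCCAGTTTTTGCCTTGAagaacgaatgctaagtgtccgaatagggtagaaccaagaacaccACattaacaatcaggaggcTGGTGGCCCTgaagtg
Site in Ccl28: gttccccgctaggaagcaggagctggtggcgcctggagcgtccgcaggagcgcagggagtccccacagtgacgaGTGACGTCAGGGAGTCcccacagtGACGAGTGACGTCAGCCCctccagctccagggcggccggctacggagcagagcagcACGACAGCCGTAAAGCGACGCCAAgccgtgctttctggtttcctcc

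Promoter accessibility was rare across the family. A promoter site called in at least 3 of 4 libraries was present at 4 of 37 chemokine ligand genes (10.8%), against 55.1% of all protein-coding genes. With all 4 libraries needed, 2 of 37 promoters remained, Ccl25 and Ccl27a, against a background of 45.8%. No peak in any library was found at 31 of 37 promoters (83.8%), against 39.2% of all genes. The 31 include Ccl19, Ccl21a, Ccl21b and Ccl27b, whose repeated sequence, described below, leaves an absent peak without a reading. In replicate 1, 4 of the 37 promoters had a peak (background 58.3%), and in replicate 2, 6 had one (58.4%). In replicate 3 there were 4 (56.7%) and in replicate 4 there were 2 (46.2%). The shortfall was thus present in every library. Requiring replicates 1 and 2 alone also gave 4 promoters, against 56.4% of all genes.

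**Figure D1:**
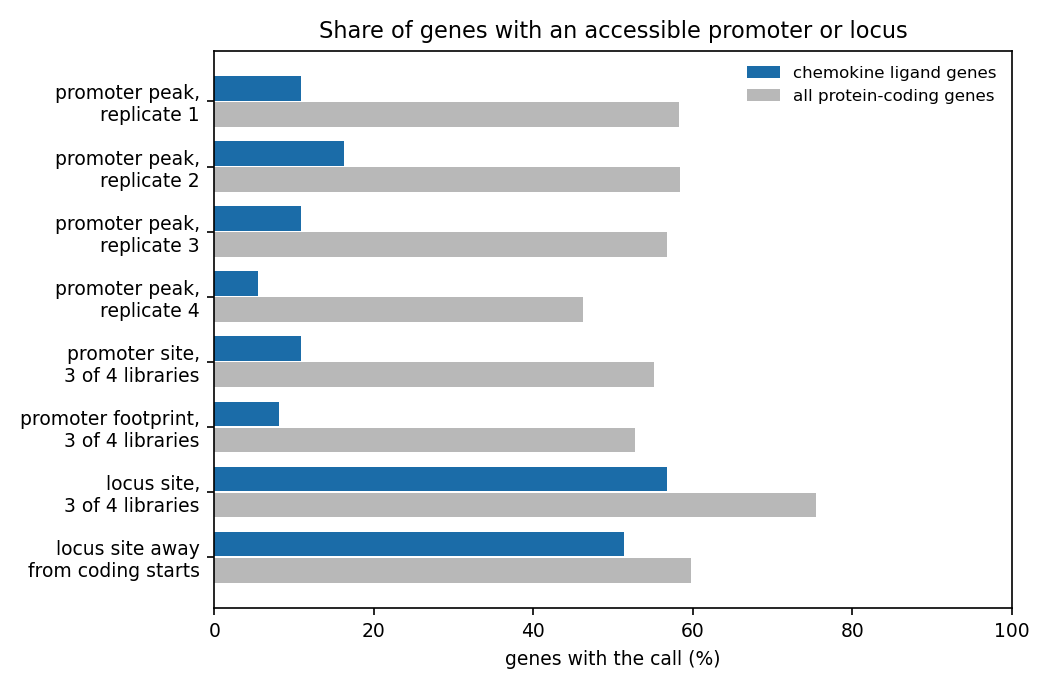
Share of genes with each accessibility call, in percent on the horizontal axis, for the 37 chemokine ligand genes (blue) and all 21938 protein-coding genes (grey). Promoter calls were between 5.41% and 16.2% of the chemokine ligand genes in each of replicates 1 to 4. Calls anywhere in the locus were closer to the background (56.8% against 75.5%). The 37 include Ccl19, Ccl21a, Ccl21b and Ccl27b, whose repeated sequence leaves an absent peak without a reading.

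The other deposited lists gave like counts. A footprint in at least 3 of 4 libraries was present at 3 of 37 promoters, those of Ccl25, Ccl27a and Ccl4, against 52.8% of all genes. Cut-rate intervals, stretches the authors list with a false discovery rate below 0.05, reached 4 of 37 promoters in at least 3 libraries, against 56.0%. No cut-rate interval in any library was found at 31 of 37 promoters, against 37.5%. These lists come from the same alignments as the peaks, and 98.9% to 99.8% of the cut-rate intervals lay within 0.5 kb of a peak of the same library, so they are not separate evidence.

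Ccl25, the thymic and intestinal attractant of Ccr9-bearing T cells, had the highest promoter of the family. Its relative height was 2.18, 2.37, 2.74 and 2.60 in replicates 1 to 4, or 2.47 ± 0.244 (SD, n = 4). All 4 values were above the median of 1.32 over the 12087 accessible promoters of all genes, and the mean was higher than 83.5% of them. The promoter held 8, 4, 4 and 3 footprints and 1343, 1242, 1252 and 842 bases in cut-rate intervals. The site lies at 6 of the 8 annotated starts of Ccl25 (chr8:4325210-4360020, plus strand), which give 7 of its 10 transcripts and 2 of the 4 protein-coding ones. The same site lies within 1 kb of the start of Elavl1, the gene of an RNA-binding protein expressed in most cells, which runs the opposite way, and the openness of either start cannot be told apart. The starts at 4332259 and 4349588, the second of which gives the other 2 protein-coding transcripts, had no site and no cut-rate base in any library. The RefSeq promoter at the upstream starts holds 52 CpG in 300 bases, and the one at the downstream start holds 1.

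Ccl27a encodes a skin-homing ligand of keratinocytes, whose gene also has long upstream transcripts. Its promoter relative height was 1.08, 1.10, 1.15 and 0.561, or 0.972 ± 0.275 (SD, n = 4). Replicate 4 was low and the other libraries lay close together, and the mean was higher than 37.3% of accessible promoters. Footprints numbered 9, 6, 9 and 0, and bases in cut-rate intervals 924, 771, 962 and 227. A lower site in the same promoter had relative heights of 0.269, 0.347, 0.440 and 0.456. The sites lay at 14 of 18 starts, which give 5 of the 8 protein-coding transcripts, and not at the 4 starts between 41770212 and 41771547. This stretch of chromosome 4 is partly duplicated: 46.1% of the 36-base windows of the higher printed site and 52.2% of those of the lower one have another exact copy in the genome, up to 9 in all. How reads with several matches were treated is not given in the sources used here, and the part of such reads in these heights was not tested.

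Ccl25 stood above Ccl27a in 4 of 4 libraries. The difference was 1.40 ± 0.55 on the log2 scale of relative height (SD, n = 4), and the exact two-sided sign-flip permutation test gave p = 0.13, the smallest value 4 libraries allow. This was the only pair tested, since only these genes had a promoter peak in all 4 libraries.

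Ccl4 encodes MIP-1 beta, which activated and memory CD8 T cells secrete. Its promoter site (chr11:83662301-83662520) had relative heights of 0.418, 0.364, 0.289 and 0, and its mean was higher than 11.4% of accessible promoters. Replicates 1 to 3 were alike and replicate 4 had no peak. Replicate 4 called 27.5% of the 6485 sites whose height in replicate 1 lay within 1.2-fold of that of Ccl4. The promoter held 5, 5, 3 and 0 footprints and 426, 312, 367 and 0 bases in cut-rate intervals. The site lies 0.2 kb before the only annotated start of Ccl4, and no other protein-coding start is within 1 kb of it.

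Cxcl10 encodes IP-10, an interferon-induced ligand of Cxcr3. Its promoter relative heights were 0.356, 0.227, 0.196 and 0, above only 7.81% of accessible promoters in the mean. Replicate 4 again had no peak, and it called 21% of sites of like height in replicate 1. Footprints were few (0, 1, 1 and 0), while bases in cut-rate intervals were 457, 394, 243 and 0. The site covers the 3 starts of Cxcl10 and lies within an intron of Art3.

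Cxcl2, a neutrophil attractant, and Ccl24, an eosinophil attractant, had a promoter peak in replicate 2 alone. The relative heights there were 0.0629 and 0.0514, with 126 and 124 bases in cut-rate intervals, and 0 elsewhere. These peaks do not meet the call in at least 3 libraries. No other promoter of the family had a peak.

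**Figure D2:**
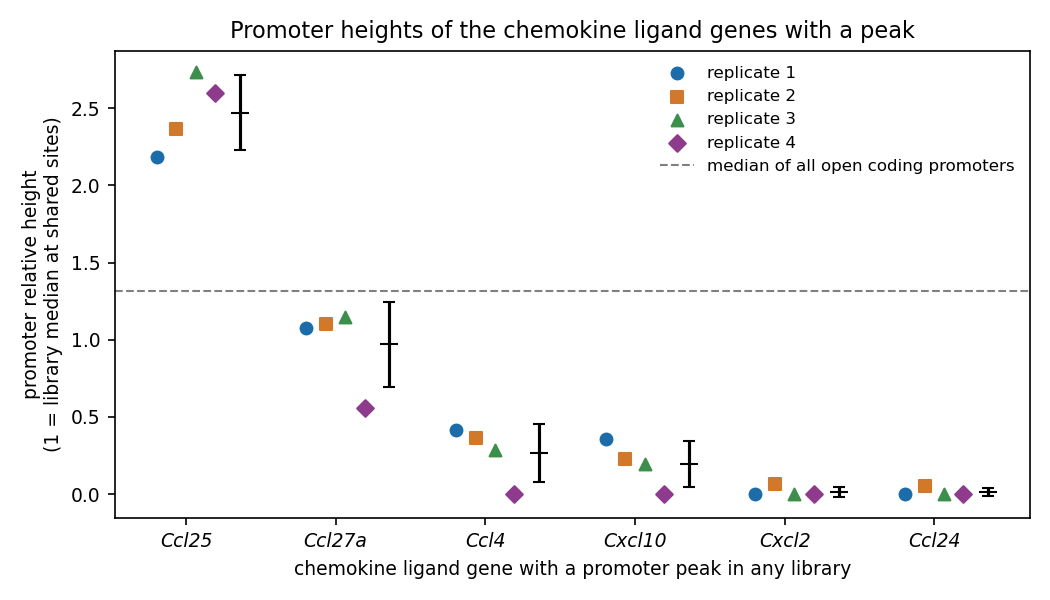
Promoter relative height (vertical axis, 1 is the median of a library's shared sites) of the 6 chemokine ligand genes with a promoter peak in any library, by replicate, with mean and SD over 4 libraries in black and the median of all accessible coding promoters as a dashed line. Only Ccl25 lies above that line of 1.32, and Ccl4 and Cxcl10 are at 0 in replicate 4.

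CpG content differed from that of other promoters. RefSeq promoter sequences, 250 bases before to 50 after a start, matched 27 of 37 genes with 33 promoters, and 16522 of 21911 protein-coding gene symbols with 20150. Ccl2, Ccl4, Ccl5, Ccl7, Ccl11, Ccl24, Ccl26, Cxcl5, Cxcl16 and Cxcl17 had no match. The median was 7 CpG per 300 bases over the matched chemokine ligand genes and 15 over all matched genes, taking each gene's richest promoter. Of the 13 chemokine ligand genes with at most 5 CpG, 0 had an accessible promoter, against 11.9% of all such genes. Of the 14 with more CpG, 3 had one (21.4%), namely Ccl25, Ccl27a and Cxcl10, against 76.3%. Ccl21a among the 13, and Ccl19, Ccl21b and Ccl27b among the 14, have largely repeated promoters, described below. An absent peak there does not show inaccessible chromatin. CpG-rich members without a site were Cx3cl1 (19 CpG), Cxcl12 (20) and Cxcl14 (22). The 45 CpG of Ccl21b come from a RefSeq promoter at chr4:42172870-42173169, away from the gene model used here.

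Motif matches in these promoters are given beside their share of all promoters, as a description and not as binding sites, and the shares lay above that of all promoters for 6 families and below it for STAT and RUNX. The NF-kB letters GGGANTTTC or GGGGNTTTC, sought on both strands like all others, occurred in 8 of 33 promoters (24.2%), those of Ccl9, Ccl20, Ccl27b, Cxcl1, Cxcl2, Cxcl3, Cxcl9 and Xcl1, against 2.15% of all promoters. TATAAA, the TATA box, occurred in 30.3% against 12.2%. The AP-1 letters TGACTCA or TGAGTCA, which are each other's reverse complement, occurred in 18.2% against 4.65%. The interferon response letters GAAANNGAA occurred in 18.2% against 8.21%, and the TCF7/LEF1 letters CTTTGAT or CTTTGAA in 15.2% against 7.47%. ETS letters (ACCGGAAGT or ACAGGAAGT) occurred in 6.06% against 2.5%, STAT letters (TTCNNNGAA) in 6.06% against 7.74%, and RUNX letters (TGTGGT or TGCGGT) in 15.2% against 21.4%. Promoters of duplicated genes share sequence, so the 33 are not independent.

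Promoters with such letters and no peak in any library are shown for Cxcl9 and Xcl1, with matches of the families above in capitals. Cxcl9 encodes MIG, an interferon gamma-induced ligand of Cxcr3. Its promoter (chr5:92328030-92328329, minus strand) holds 1 match each for the letters of the TATA box, NF-kB, the interferon response element, AP-1 and RUNX. The TATAAA of Cxcl9 lies toward the 5′ end of the printed stretch, far upstream of the start. Xcl1 encodes lymphotactin, the ligand of Xcr1 on cross-presenting dendritic cells, and its promoter (chr1:164935473-164935772, minus strand) holds 1 match each for NF-kB and RUNX.
Cxcl9 promoter: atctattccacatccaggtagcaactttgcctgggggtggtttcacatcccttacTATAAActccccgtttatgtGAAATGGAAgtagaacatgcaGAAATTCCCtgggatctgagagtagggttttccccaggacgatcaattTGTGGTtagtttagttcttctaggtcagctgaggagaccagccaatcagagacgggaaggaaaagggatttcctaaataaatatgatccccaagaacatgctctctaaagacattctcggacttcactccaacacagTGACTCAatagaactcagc
Xcl1 promoter: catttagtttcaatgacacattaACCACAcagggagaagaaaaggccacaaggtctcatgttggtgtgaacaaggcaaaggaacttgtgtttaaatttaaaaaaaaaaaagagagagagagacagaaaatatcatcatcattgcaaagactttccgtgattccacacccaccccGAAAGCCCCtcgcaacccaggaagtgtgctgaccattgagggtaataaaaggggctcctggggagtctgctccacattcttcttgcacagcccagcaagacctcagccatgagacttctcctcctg

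Among the printed accessible start sites, the Ccl25 site holds an ETS and a TCF7/LEF1 match, the lower Ccl27a site an NF-kB match, and the Cxcl10 site an AP-1 match. The first base of the ETS match as printed is a capital, and all other bases of these matches lie outside the capitals. In a search added after the printed sequences had been seen, GGGACTTCC or GGGAAATTC, other letters that NF-kB is known to bind, occurred in 5 of 33 promoters (15.2%), among them both spellings at Cxcl10, against 1.22% of all promoters. The last search was built from the Cxcl10 sequence, so its match there is no finding. The printed Ccl25 start site, also seen before that search, holds GGGACTTCC as well. The share of 15.2% includes both genes, so it is a description only.

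Away from promoters the loci were less bare. The 37 loci held 84 sites found in any library, of which 40 were called in at least 3 libraries and 19 in all 4. Of the 40, 5 lay at chemokine ligand starts, 8 at starts of other protein-coding genes and 27 away from protein-coding starts. Median relative height was 0.378 at the chemokine ligand starts, 1.86 at the neighbours' starts and 0.265 at the 27 others. The last value was near that of all 23887 such sites in the genome, 0.263. At least 1 accessible site was present at 21 of 37 loci (56.8%), against 75.5% of all loci, and a site away from coding starts at 19 (51.4%), against 59.8%. The median was 1 site per locus, against 3 over all genes. Per length, the median locus held 1.73 sites per 100 kb, against 3.36 over all genes. Merged so that each base counts once, the loci held 2.35 sites per 100 kb and those of all protein-coding genes 2.47. The 16 loci without an accessible site include those of Ccl19, Ccl21a, Ccl21b and Ccl27b. Their repeated sequence, described below, leaves an absent peak without a reading. All locus counts, shares and medians here include these genes, so part of the shortfall has no reading either.

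By the position of their centre among protein-coding genes, the 27 sites were intergenic in 13 cases, intronic in 10 and exonic in 4. Their distance from the nearest chemokine ligand start was 2.5 to 33.2 kb, with a median of 11.7 kb. Of all 84 sites, 17 (20.2%) were found in replicates 1 and 2 and in no other library, against 13.3% of all sites in the genome. Such sites made up the whole of the Cxcl12 and Cxcl13 loci.

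**Figure D3:**
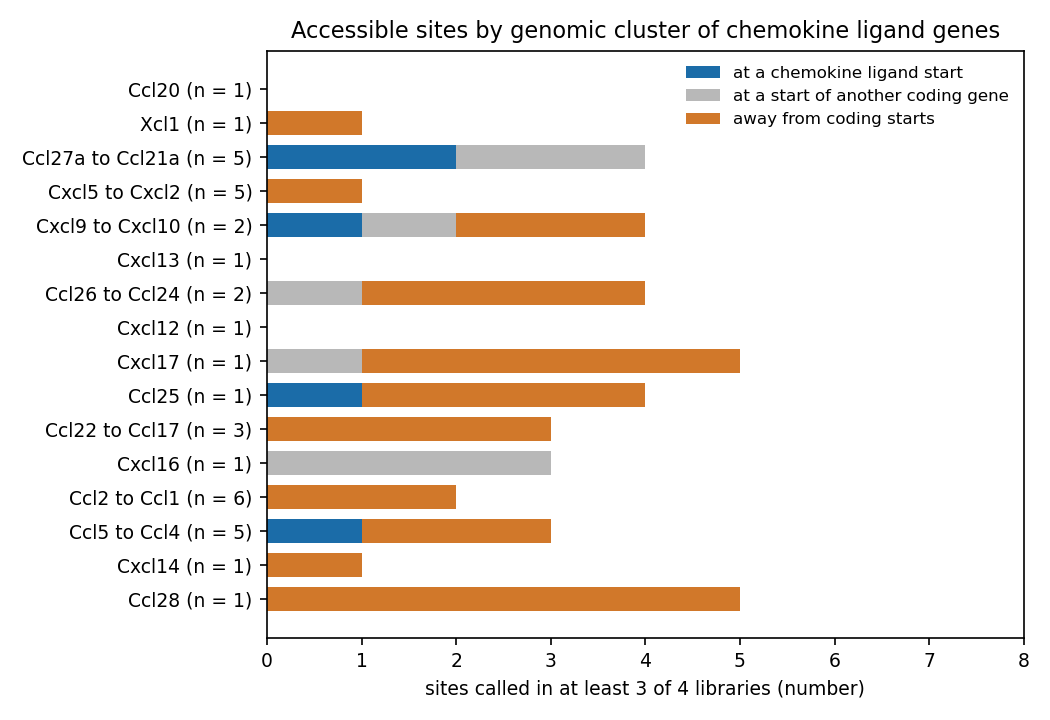
Number of sites called in at least 3 of 4 libraries (horizontal axis) in each of the 16 genomic clusters of chemokine ligand genes, with the number of genes in brackets, split by position. Sites at a chemokine ligand start occur in 4 clusters, and the Cxcl17 and Ccl28 loci hold the most sites, 5 each.

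The genes fall into 16 clusters when members less than 500 kb apart are joined. A cluster of homeostatic ligands lies on chromosome 4: Ccl27a, Ccl21b, Ccl27b, Ccl19 and Ccl21a. Of these, Ccl19 and the Ccl21 genes encode the ligands of Ccr7, made by lymphoid stroma. Beyond the sites at Ccl27a, the 2 accessible sites there were at starts of other genes. The loci of Ccl19, Ccl21a, Ccl21b and Ccl27b had no peak in any library. Their RefSeq promoters are largely repeated: 77.7% of 36-base windows had another exact copy for Ccl19, 75.5% for Ccl21a and 100% for Ccl21b and Ccl27b. Whether reads could be placed in that stretch was not tested, so an absent peak there does not show inaccessible chromatin. All other matched promoters of the family outside this cluster had 0 repeated windows.

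Cxcl12, the ligand of Cxcr4, and Cxcl13, the B cell attractant, each had 2 sites, all in replicates 1 and 2 alone, with relative heights up to 0.178. Cxcl14 had a site 16.7 kb past its start, with relative heights of 0.298, 0.288, 0.285 and 0. Ccl20, the ligand of Ccr6, had no peak in its locus in any library.

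Ccl28, a mucosal ligand of Ccr10 and Ccr3, had no promoter peak and 5 accessible sites away from coding starts. The highest, 8.1 kb inside the gene, had relative heights of 0.931, 1.07, 0.732 and 1.00, or 0.933 ± 0.146 (SD, n = 4), higher than 90.9% of such sites in the genome. All 4 libraries lay near the level of a typical shared site. Its printed sequence holds 17 CpG and TGACGTCA, the cyclic AMP response element, at 2 places, both within footprints. These letters, searched after the sequence had been seen, occur in the central 200 bases of 1.35% of all 41228 accessible sites, and in 0 of the 33 matched chemokine ligand promoters against 2.31% of all promoters. The next site, 23.4 kb upstream in an intron of Tmem267, had relative heights of 0.451, 0.232, 0.323 and 0.790, and replicate 4 was the highest there.

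The site next to Ccl25, 2.5 kb upstream in an intron of Elavl1, had relative heights of 1.22, 1.47, 1.05 and 0.737. It ranked above 93.9% of sites away from coding starts. A lower site 11.4 kb upstream had values of 0.471, 0.351, 0.234 and 0.

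Interferon-induced Cxcl9 and Cxcl10 are neighbours on chromosome 5. Cxcl9 had no promoter peak, and the highest site of the family away from coding starts lay 15.6 kb past its start. Its relative heights were 1.18, 1.80, 1.12 and 0.737, or 1.21 ± 0.44 (SD, n = 4), higher than 94.9% of such sites. A site at the start of Sdad1, 18.1 kb past the Cxcl9 start, had a mean of 1.53. Upstream of Cxcl10, 4.9 kb away within Art3, a site was 0.244, 0.225, 0.234 and 0.474. The next cluster on that chromosome, Cxcl5, Cxcl3, Cxcl15, Cxcl1 and Cxcl2, encodes neutrophil attractants of the Cxcr2 group. It held 1 accessible site in 158 kb, 5.3 kb past the start of Cxcl2, with relative heights of 0.224, 0.270, 0.213 and 0. The loci of Cxcl3 and Cxcl15 had no peak in any library, and Pf4 and Ppbp, platelet ligands of that stretch whose symbols the rule does not take, had no promoter peak.

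Ccl17 and Ccl22, the dendritic cell ligands of Ccr4, flank Cx3cl1, the membrane-bound fractalkine, on chromosome 8. None had a promoter peak. A site 2.5 kb past the start of Ccl17 had relative heights of 0.967, 1.49, 0.976 and 0.860, or 1.07 ± 0.285 (SD, n = 4), higher than 93.4% of sites away from coding starts. A site 4.3 kb past that start was 0.264, 0.227, 0.213 and 0, and the locus of Ccl22 held no accessible site.

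The sites near Cxcl9, Ccl25 and Ccl17 share a feature that was sought after their sequences had been seen. Each holds the core motif of CTCF, a protein known for its place at the borders of chromatin loops, with at most 1 mismatch, and a footprint lay on the core in 3 libraries. The core occurred in the central 200 bases of 10 of the 27 sites away from coding starts (37.0%) and of 41.4% of all such sites in the genome. The share in the family was thus near the background. The Ccl28 site and the other sites above 0.3 in mean relative height did not hold the core.

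The inflammatory CC ligands on chromosome 11 form a pair of clusters. Ccl2, Ccl7, Ccl11, Ccl12, Ccl8 and Ccl1, which attract monocytes, eosinophils and T cells, had 2 accessible sites in 310 kb and no promoter peak. One lay in an intron of Ccl1, 3.8 kb upstream of a start, with relative heights of 0.298, 0.265, 0.295 and 0. The other lay 2.5 kb past the start of Ccl7, with values of 0.102, 0.080, 0.131 and 0, above only 1.73% of such sites. The loci of Ccl12 and Ccl8 had no peak in any library.

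Ccl5, Ccl9, Ccl6, Ccl3 and Ccl4 form the other cluster. Ccl5, or RANTES, a product of memory CD8 T cells, had 4 sites in its locus, each in a single library. Ccl9 and Ccl6 had no accessible site. Ccl3, or MIP-1 alpha, had no promoter peak, although it lies next to Ccl4 and is known to be induced with it. Neighbouring sites 9.6 and 9.0 kb past the start of Ccl3 had relative heights of 0.469, 0.297, 0.344 and 0, and of 0.538, 0.362, 0.395 and 0. They are broad, 460 and 660 bases, and at the level of the Ccl4 promoter. Replicate 4 had no peak at either, and it called 33.8% and 41.3% of the sites of like height in replicate 1.

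**Figure D4:**
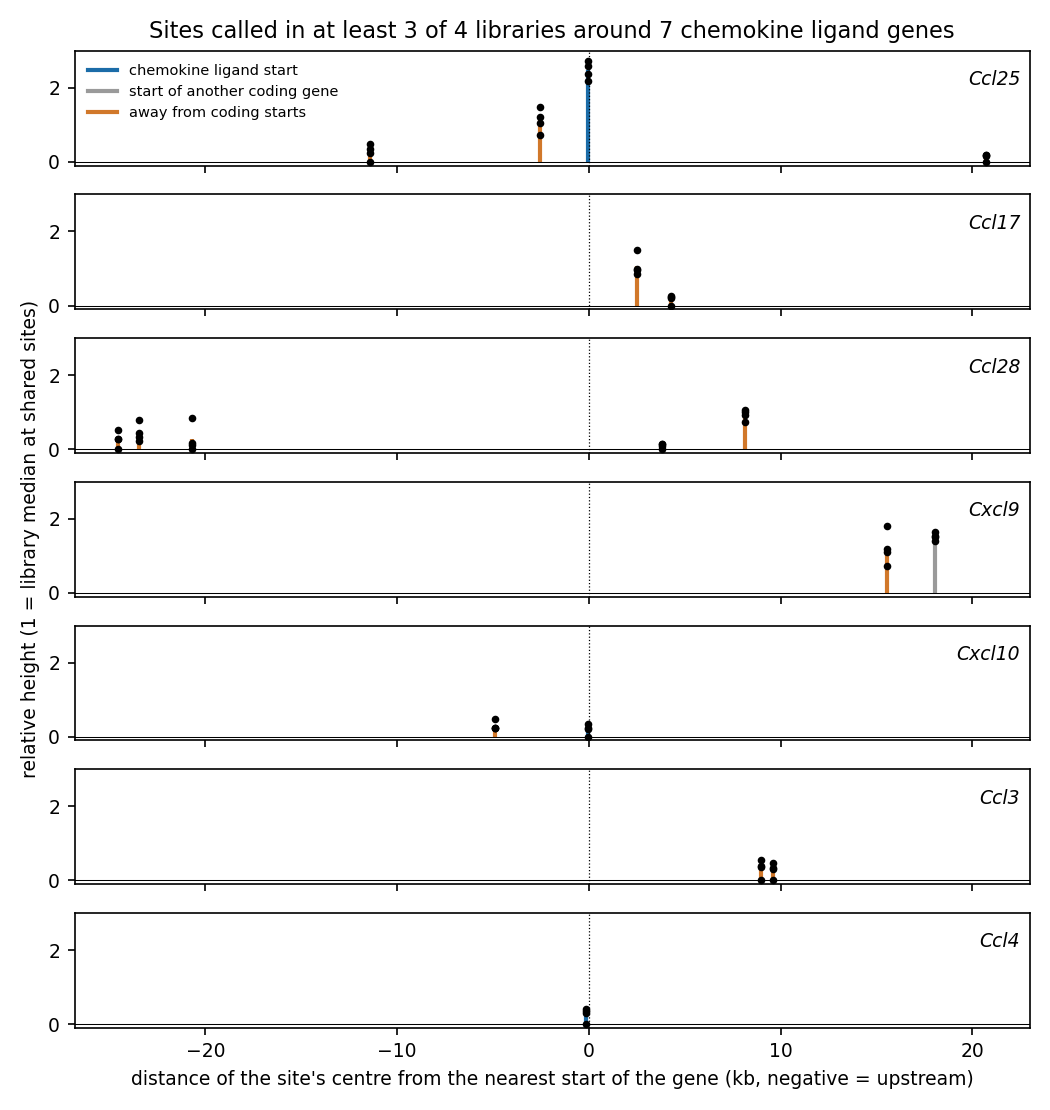
Distance of each site called in at least 3 of 4 libraries from the nearest start of the named gene (horizontal axis, kb, negative is upstream) and its relative height (vertical axis), with lines for the mean of 4 libraries and points for each library, for 7 genes. Ccl25 has a high site at its start, and the sites of Ccl3, Ccl4 and Cxcl10 are low. Ccl17 and Ccl28 have their highest site away from coding starts. The highest site of Cxcl9 is at the start of Sdad1, and the next lies away from coding starts.

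Among the remaining loci, that of Cxcl17, a mucosal ligand, held 5 accessible sites. Those away from coding starts included a site over an exon of Lipe, 32.9 kb past the Cxcl17 start, at 0.931, 0.878, 0.966 and 0.895, an SD of 0.039 over 4 libraries. A site 11.7 kb upstream was 1.03, 1.38, 0.907 and 0, although replicate 4 called 81.5% of sites of like height in replicate 1. Cxcl16, the membrane-bound ligand of Cxcr6, had 3 sites, all at the starts of its neighbours Arrb2 and Med11, and none at its own. The Ccl26 and Ccl24 cluster of eosinophil attractants held 4 sites, with 1 at the start of Hip1 at a mean of 2.04. Of the sites within Hip1, the higher was 0.213, 0.211, 0.247 and 0.772 and the next 0.176, 0.185, 0.230 and 0.439. Xcl1 had a site 24.6 kb upstream, at 0.444, 0.238, 0.378 and 0.

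The receptors of these ligands give the other side of the system. Of 22 chemokine receptor genes, 7 had a promoter site in at least 3 libraries (31.8%, against the same background of 55.1%), and 13 had no promoter peak in any library. Ccr7, which reads Ccl19 and Ccl21, stood at 1.69 ± 0.279 and Cxcr4, which reads Cxcl12, at 2.87 ± 1.02 (SD, n = 4). By library Cxcr4 was 2.393, 1.653, 3.615 and 3.807, so replicates 3 and 4 were the higher ones. Ccr9, which reads Ccl25, had a peak in replicates 1 to 3, at 0.473, 0.421 and 0.357, and so did Cxcr3, which reads Cxcl9 and Cxcl10, at 0.129, 0.0876 and 0.186. Cxcl12, the ligand of Cxcr4, had no promoter peak in any library, and for the ligands of Ccr7 the repeated sequence described above leaves an absent peak without a reading. The difference between receptors and ligands was not tested.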

How the data were processed

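DNase-seq of 4 libraries of 1 group was used, and the members, lists and tests were chosen with earlier results of these data known. Per the labels and the text deposited with each library, peaks, footprints and cut rates were made from each library's own alignment on mm10; the sources used here do not name aligner, caller or cut-offs. Peak height is a signal the authors deposited scaled to library depth. The deposited footprint and cut-rate values are p-values or q-values, read as false discovery rates: 0.01 in every footprint and at most 0.05 for cut rates. No read counts were used, so sequencing depth is not known. Library size is given only as peaks (4.22 to 14.7 Mb covered per library), and no counting interval is given.

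Peaks of the longer lists were merged at an overlap of 1 bp (Python 3.11.15, numpy 2.4.6, pandas 2.3.3), and the steps were tested on simulated peaks, where 1308 of 1308 sites were recovered. Genes came from GENCODE mouse release 21, without the mitochondrial chromosome. Named sites were the 2 highest away from coding starts in each cluster. Printed sequences were those of the highest such sites and of start sites of genes with a matched RefSeq promoter, which leaves out Ccl4. The promoters of Cxcl9 and Xcl1 were chosen after their values were seen. Heights were compared with an exact sign-flip permutation over libraries. Copies were exact 36-base matches on either strand. Alternatives were the list used, the number of libraries, overlap, windows, equal peak numbers, cut-rate limits and leaving out each library. Values of a few genes are not reported here.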

Additional observations from a re-analysis of the deposited data

Results flagged for a closer look

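Of 25 promoter or site heights tested over the 4 libraries, 7 had a library far from the others. For measured values chance gives about 1 in 20, but a missing peak is set to 0 here, so that rate does not apply to the Cxcl2, Ccl24, Cxcl14 and Ccl1 values below. A peak in 1 library alone always stands apart in this way. The Ccl27a promoter was 0.561 in replicate 4, below the other libraries (1.08 to 1.15). The Cxcl2 promoter (0.0629) and the Ccl24 promoter (0.0514) had a peak in replicate 2 alone.

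The other 4 were sites away from coding starts at which replicate 4 stood apart. It was the highest at the site near Cxcl10 (0.474, others 0.225 to 0.244) and at the site near Ccl26 within Hip1 (0.772, others 0.211 to 0.247). It was 0 at the site near Cxcl14 (others 0.285 to 0.298) and at the site within Ccl1 (others 0.265 to 0.298). Among sites called in all 4 libraries with a like mean in replicates 1 to 3, the median height in replicate 4 was 0.456 for both of the first sites. The Cxcl10 value lay above 56.8% of them and the Ccl26 value above 97.9%. Replicate 4 called 15.4% of the sites of like height to those at Cxcl14 and Ccl1.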

How the results depend on the processing

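The count of 4 chemokine ligand promoters stayed at 4 with the shorter peak lists, 2 libraries needed, 50% reciprocal overlap, a 0.5 kb window, the 5′ end only and replicates 1 and 2 alone. The share of all genes under these settings was 49.5% to 57.5%. A 2.5 kb window gave 6, adding Ccl7 and Ccl17, against 57.7% of all genes. With all 4 libraries needed, promoters, locus sites and sites away from coding starts numbered 2, 19 and 9, promoters with a footprint 1 and with a cut-rate interval 2. The shares of all genes for the promoter, footprint and cut-rate counts were 45.8%, 37.6% and 46.6%. No such share was computed for the site counts. With equal numbers of highest peaks (20647), promoters, locus sites and sites away from coding starts numbered 2, 15 and 6. For promoters the share of all genes was 44.35%. Leaving out each library gave ranges of 2 to 4 promoters, 19 to 38 locus sites, 9 to 25 sites away from coding starts, 1 to 3 promoters with a footprint and 2 to 4 with a cut-rate interval. For promoters, footprints and cut-rate intervals the shares of all genes were 45.82% to 54.96%, 37.62% to 52.74% and 46.65% to 55.85%. The low ends came without replicate 1, 2 or 3, when a call in replicate 4, the library with the fewest peaks, is needed. Without replicate 1, 2 or 3 there were 2 promoters each time. Sites away from coding starts numbered 44 with 2 libraries needed and 42 in replicates 1 and 2 alone. Those 2 libraries also gave 57 locus sites. They gave 3 promoters with a footprint (54.35% of all genes) and 4 with a cut-rate interval (57.37%). A locus flank of 5 kb gave 18 locus sites and 11 away from coding starts, and 100 kb gave 120 and 71. A 2.5 kb window gave 8 promoters with a cut-rate interval, against 58.7% of all genes. The log2 difference between Ccl25 and Ccl27a was 1.13 to 1.52 without each library in turn, with an exact permutation p of 0.25, the smallest 3 libraries allow; the shorter lists gave no value because Ccl27a has no promoter peak there in replicate 4. No paired analysis was possible because there is 1 group.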
